A study of Mus musculus with 12 samples.

Results

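The genes described here are 10 of the secretory pathway that are known targets of the unfolded protein response: Hspa5, Hsp90b1, Dnajb9, Dnajb11, Herpud1, Sdf2l1, Creld2, Manf, Pdia4 and Pdia6. They were selected by their names in a table of 55414 genes, and all 10 had one row each and passed the filter that left 15148 genes for testing (a value of at least 1 TPM in at least 6 lungs). Secreted and membrane proteins fold in the endoplasmic reticulum (ER), where chaperones shield the unfolded chain, disulfide isomerases join its cysteines, and failed chains are pulled back into the cytosol and degraded. When unfolded chains pile up, the sensors IRE1 (gene Ern1), PERK (Eif2ak3) and ATF6 (Atf6) set off the unfolded protein response, and the factors spliced XBP1, ATF6 and ATF4 raise the transcription of chaperone and degradation genes. In the lung, plasma cells, alveolar type 2 cells and club cells secrete much protein, and activated macrophages and neutrophils also use this pathway.

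Whole-lung RNA was sequenced from 12 C57BL/6J mice, all instilled with lipopolysaccharide (LPS) to induce acute lung injury, and lungs were taken on day 4. The 6 IL-10 B-KO mice came from a cross of Il10 flox/flox and mb1-cre mice, in which Cre is expressed from the B-lineage gene mb1 (Cd79a), so that Il10 is removed from B cells and left in all others. The 6 controls were IL-10 B-WT mice; whether these carried Cre or the floxed allele, and the age of the mice, are not given in the sources used here. Airways were lavaged before the lungs were excised, and no lung without LPS was analysed here, so that the comparison is between genotypes within LPS injury. Values are TPM (transcripts per gene length, scaled to a common total in each lung), so that levels of different genes can be set side by side, while the read depth of a lung is unknown. All errors given here come from how far the 6 lungs of a genotype lie apart.

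Lungs differed in composition before any comparison of genotypes. The targeted gene, Il10, was at most at 0.88 TPM in a control lung and at 0.58 TPM in an IL-10 B-KO lung, with 0 as the lowest value of each genotype, so that its deletion in B cells could not be seen in whole lung. Cd79a, the gene from which Cre is expressed and a B cell receptor subunit, ran from 15.3 to 259 TPM in IL-10 B-WT and from 0 to 5.73 TPM in IL-10 B-KO lungs. The lung markers Sftpc, Scgb1a1, Ager and Pecam1 were present in all 12 lungs. Mitochondrially encoded genes and their nuclear copies took 45.3% of all TPM in IL-10 B-WT replicate 5, against 8.01% to 24.9% in the other 11 lungs. Immunoglobulin genes took 15.4% in IL-10 B-WT replicate 2, against at most 2.19% elsewhere. IL-10 B-WT replicate 1 had the highest macrophage (11799 TPM) and neutrophil (2479 TPM) marker sums of its genotype. Values without these lungs are given where they matter. In whole lung, fewer cells of a type and less RNA per cell cannot be told apart.

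The promoters of most of these genes hold a sequence that is known to carry the response, and they are shown as a description that does not rest on expression. Because the genes were chosen as known targets of the response, a higher share than among all promoters could be foreseen and was not tested. The ER stress response element (ERSE) is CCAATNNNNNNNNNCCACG, and its shorter form ERSE-II is ATTGGNCCACG. Both were searched on both strands of RefSeq promoters (GRCm38.p6, 250 bases before to 50 after the start), and both end in the short site CCACG. A promoter was available for 9 of the 10 genes, all but Manf. ERSE stood in 4 of them (Hspa5, Hsp90b1, Pdia6 and Creld2, with one copy on each strand in Hsp90b1) and ERSE-II in 2 (Herpud1 and Dnajb11), while Dnajb9, Sdf2l1 and Pdia4 had neither spelling in this window. Over all 32851 promoters, 0.119% held ERSE, 0.0365% held ERSE-II and 0.155% held either. Genes of the same pathway, listed further below, held it too. Either form stood in 4 of 21 available promoters of other ER chaperones (Calr, Canx, Dnajc3 and Ero1b). For ER-associated degradation it stood in 2 of 15 (Syvn1 and Derl3), and over all 7 lists in 6 of 99. The short site CCACG alone stood in 32.8% of all promoters, and the element TGACGTGG, known to bind XBP1, stood in 0.676% of all promoters and in none of the 9. The 7 matches follow with 20 bases on either side, each read along the strand of the motif, with the motif in capitals.
Hspa5, chr2:34772005-34772063, plus strand: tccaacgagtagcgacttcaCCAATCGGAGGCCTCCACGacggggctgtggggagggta
Hsp90b1 first copy, chr10:86705618-86705676, minus strand: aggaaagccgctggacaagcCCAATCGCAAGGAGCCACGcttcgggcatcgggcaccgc
Hsp90b1 second copy, chr10:86705513-86705571, plus strand: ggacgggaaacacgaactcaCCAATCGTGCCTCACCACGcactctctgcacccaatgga
Pdia6, chr12:17266471-17266529, plus strand: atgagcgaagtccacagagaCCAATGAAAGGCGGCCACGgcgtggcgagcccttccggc
Creld2, chr15:88819500-88819558, minus strand: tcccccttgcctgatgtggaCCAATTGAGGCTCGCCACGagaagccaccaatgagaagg
Herpud1, chr8:94386357-94386407, plus strand: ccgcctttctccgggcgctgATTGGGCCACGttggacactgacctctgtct
Dnajb11, chr16:22857832-22857882, plus strand: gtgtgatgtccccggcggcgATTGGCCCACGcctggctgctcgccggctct
The motif began 65 bases before the RefSeq start in Hspa5 (inside the gene as GENCODE draws it, which begins further upstream), 52 in Herpud1, 98 in Pdia6 and 126 in Creld2. In Hsp90b1 the copies began 212 and 107 bases before the start. In Dnajb11 the match lay downstream of the RefSeq start. The strand of the motif was that of the gene in Hspa5, Pdia6, Herpud1, Dnajb11 and the first copy of Hsp90b1, and opposite to it in Creld2 and the second copy of Hsp90b1. The 9-base spacer between CCAAT and CCACG held 6 or 7 G or C bases in each of the 5 copies. A match is a description of the letters and not a measured binding site.

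For none of the 10 genes did the difference between IL-10 B-KO and IL-10 B-WT lungs pass the test. By limma on log2(TPM + 1) with Benjamini-Hochberg adjustment over 15148 genes, 0 of 10 met the study's rule for DEGs (an adjusted p ≤ 0.05 together with a log2 fold change ≥ 1 in size), against 0.495% of all genes tested. By the adjusted p alone 0 of 10 passed, against 0.522% of all genes, and at an unadjusted p of at most 0.05 also 0 of 10, against 12.5%. For 0 of 10 did the groups not overlap, against 1.02%. The fitted value was above 0 (higher in IL-10 B-KO) for 9 genes and below 0 for Herpud1, where 63.2% of all genes lay above 0, and after quantile normalization it was above 0 for only 4 of the 10. The median log2 fold change of the 10 was 0.17, beside 0.10 over all genes. A p that misses the threshold does not show equal levels, and the 95% intervals given with each gene bound what could have been missed. They stayed within 1 on the log2 scale for all but Hspa5, Sdf2l1 and Pdia6.

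**Figure D1:**
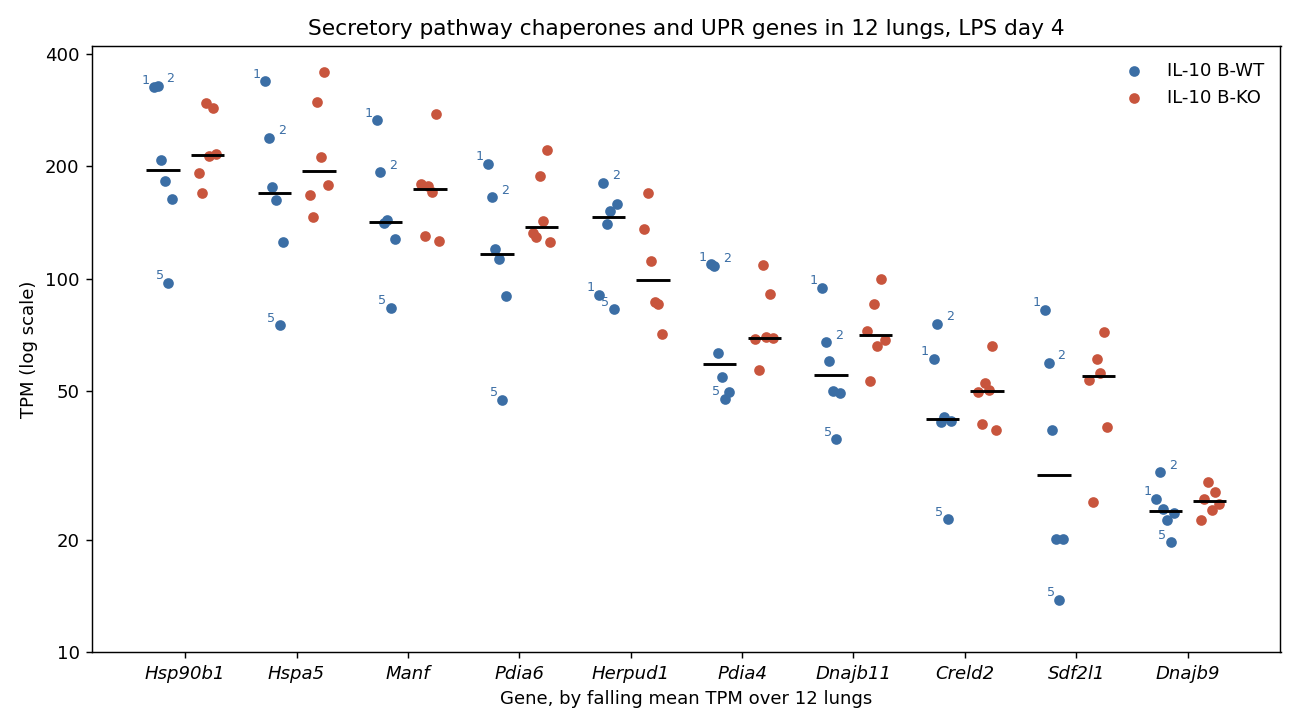
TPM of the 10 genes (vertical log axis) in each of 6 IL-10 B-WT (blue) and 6 IL-10 B-KO (red) lungs, with black bars at the medians and IL-10 B-WT replicates 1, 2 and 5 numbered. The groups overlap for every gene, and replicate 5 is the lowest IL-10 B-WT lung for all 10.

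The abundant chaperones bind unfolded chains directly. Hspa5 (BiP, ENSMUSG00000026864, chromosome 2, 34771970 to 34777547, plus strand, 9 exons) is the ER member of the HSP70 family and also holds the stress sensors inactive. Its level ran from 75.1 to 338 TPM (median 170) in IL-10 B-WT lungs and from 147 to 357 TPM (median 195) in IL-10 B-KO lungs. The lowest and the second highest of the 12 lungs were both IL-10 B-WT (replicates 5 and 1), and IL-10 B-KO replicate 5 was highest. Hspa5 averaged 186 ± 92.1 against 226 ± 83.0 TPM (SD, n = 6 each), with a log2 fold change of 0.36 (SE 0.33, 95% interval -0.36 to 1.08, limma adjusted p = 0.639, exact permutation p = 0.353). Hsp90b1 (GRP94, ENSMUSG00000020048, chromosome 10, 86690209 to 86705509, minus strand, 18 exons), the ER member of the HSP90 family, folds a narrower set of clients that includes Toll-like receptors and integrins. Its TPM ran from 97.6 to 328 (median 195) in IL-10 B-WT and from 169 to 295 (median 214) in IL-10 B-KO lungs. All 6 IL-10 B-KO lungs fell inside the IL-10 B-WT range. The means were 217 ± 92.2 and 228 ± 50.9 TPM, and the log2 fold change was 0.16 (SE 0.28, 95% interval -0.44 to 0.76, limma adjusted p = 0.814, exact permutation p = 0.615).

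Co-chaperones of the HSP40 family hand clients to Hspa5 and drive its ATP cycle. Dnajb11 (ERdj3, ENSMUSG00000004460, chromosome 16, 22857845 to 22879634, plus strand, 11 exons) was at 37.2 to 94.5 TPM (median 55.1) in IL-10 B-WT and at 53.3 to 99.8 TPM (median 70.6) in IL-10 B-KO lungs. It exceeded the IL-10 B-WT median in 5 of 6 IL-10 B-KO lungs, and the ranges overlapped over most of their length. The log2 fold change was 0.34 (SE 0.22, 95% interval -0.13 to 0.81, limma adjusted p = 0.506, exact permutation p = 0.152), with means of 59.8 ± 19.9 and 74.3 ± 16.3 TPM. Sdf2l1 (ENSMUSG00000022769, chromosome 16, 17130138 to 17132383, minus strand, 3 exons) forms a complex with ERdj3 that keeps it bound to unfolded chains. It varied most of the 10: from 13.8 to 82.6 TPM (median 29.7) in IL-10 B-WT and from 25.3 to 72.0 TPM (median 54.8) in IL-10 B-KO lungs. Replicates 4, 5 and 6 of IL-10 B-WT lay below every IL-10 B-KO lung, and replicate 1 lay above every one of them. Sdf2l1 had the largest difference of the 10, a log2 fold change of 0.58 (SE 0.41, 95% interval -0.29 to 1.46, limma adjusted p = 0.536, exact permutation p = 0.223), with means of 39.2 ± 27.1 and 51.3 ± 16.4 TPM. Dnajb9 (ERdj4, ENSMUSG00000014905, chromosome 12, 44205559 to 44210326, minus strand, 3 exons), which also restrains IRE1, was the least abundant and the steadiest. Its TPM ran from 19.7 to 30.3 (median 23.9) in IL-10 B-WT and from 22.6 to 28.6 (median 25.3) in IL-10 B-KO lungs. The highest Dnajb9 level was that of IL-10 B-WT replicate 2, the lung rich in immunoglobulin. With means of 24.3 ± 3.56 and 25.4 ± 2.09 TPM, the log2 fold change was 0.07 (SE 0.13, 95% interval -0.21 to 0.35, limma adjusted p = 0.828, exact permutation p = 0.483), the narrowest interval of the 10.

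Disulfide isomerases form and reshuffle the bonds between cysteines. Pdia6 (ENSMUSG00000020571, chromosome 12, 17266545 to 17284770, plus strand, 13 exons) was at 47.3 to 203 TPM (median 116) in IL-10 B-WT and at 126 to 221 TPM (median 138) in IL-10 B-KO lungs. All 6 IL-10 B-KO lungs lay above the IL-10 B-WT median, the one gene of the 10 for which this held, yet IL-10 B-WT replicate 2 exceeded 4 of them and replicate 1 exceeded 5. The log2 fold change was 0.45 (SE 0.30, 95% interval -0.20 to 1.10, limma adjusted p = 0.522, exact permutation p = 0.206), from means of 123 ± 55.0 and 157 ± 39.0 TPM. Pdia4 (ENSMUSG00000025823, chromosome 6, 47796141 to 47813430, minus strand, 10 exons) was at 47.8 to 109.3 TPM (median 59.0) in IL-10 B-WT and at 56.8 to 109.0 TPM (median 69.4) in IL-10 B-KO lungs. The tops of both ranges nearly met, and 4 of the IL-10 B-WT lungs lay together at or below 63.3 TPM. The log2 fold change of Pdia4 was 0.15 (SE 0.24, 95% interval -0.37 to 0.68, limma adjusted p = 0.793, exact permutation p = 0.554), from means of 72.2 ± 28.9 and 77.4 ± 19.0 TPM.

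Manf and Creld2 encode soluble ER proteins that are also secreted under ER stress. Manf (ENSMUSG00000032575, chromosome 9, 106838312 to 106891979, minus strand, 4 exons), which binds BiP and has trophic effects on injured cells, was at 83.7 to 265 TPM (median 142) in IL-10 B-WT and at 126 to 276 TPM (median 174) in IL-10 B-KO lungs. One lung stood high in each genotype, replicate 1 and replicate 5. The means were 159 ± 62.7 and 176 ± 54.2 TPM and the log2 fold change of Manf was 0.19 (SE 0.26, 95% interval -0.38 to 0.76, limma adjusted p = 0.762, exact permutation p = 0.517). Creld2 (ENSMUSG00000023272, chromosome 15, 88819646 to 88826683, plus strand, 10 exons) was at 22.7 to 75.8 TPM (median 42.2) in IL-10 B-WT and at 39.3 to 66.2 TPM (median 49.99) in IL-10 B-KO lungs. Both extremes were IL-10 B-WT lungs, the low replicate 5 and the immunoglobulin-rich replicate 2. Its log2 fold change was 0.14 (SE 0.25, 95% interval -0.39 to 0.67, limma adjusted p = 0.818, exact permutation p = 0.643), from means of 47.5 ± 18.4 and 49.8 ± 9.67 TPM.

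Herpud1 (ENSMUSG00000031770, chromosome 8, 94386438 to 94395377, plus strand, 8 exons) is an ER membrane protein that assembles the ubiquitin ligase complex of ER-associated degradation, and it was the one gene of the 10 with a value below 0. Its TPM ran from 82.8 to 181 (median 146) in IL-10 B-WT and from 71.2 to 169 (median 98.9) in IL-10 B-KO lungs. Only 1 IL-10 B-KO lung, replicate 2, exceeded the IL-10 B-WT median, and 4 IL-10 B-WT lungs stood between 140 and 181 TPM, while replicates 1 and 5 were near 90.6 and 82.8 TPM. The difference did not pass the test, with a log2 fold change of -0.29 (SE 0.25, 95% interval -0.83 to 0.25, limma adjusted p = 0.613, exact permutation p = 0.290) and means of 134 ± 39.1 and 110 ± 37.0 TPM. It was below 0 under all 23 alternative settings, from -0.57 with array quality weights (adjusted p = 0.103) to -0.18.

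**Figure D2:**
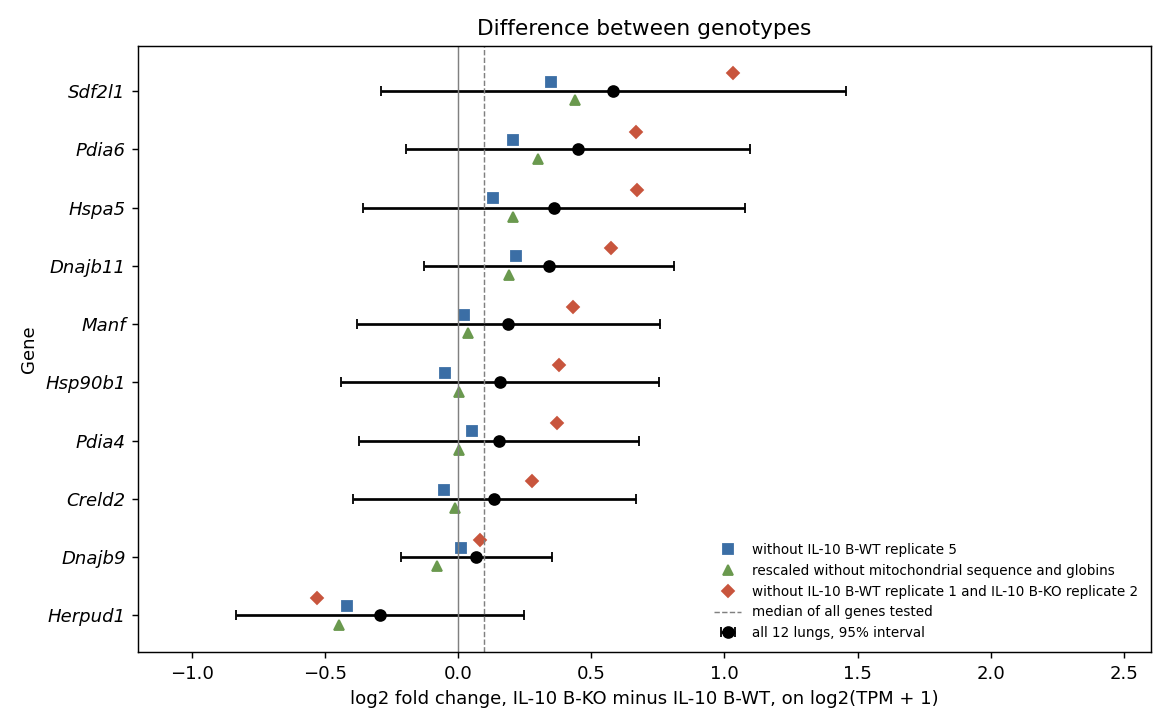
Log2 fold change of each gene (horizontal axis, IL-10 B-KO minus IL-10 B-WT, on log2(TPM + 1)), with its 95% interval from all 12 lungs (black) and the value under 3 other settings. Every interval spans 0, and leaving out IL-10 B-WT replicate 5 (squares) moves most genes toward 0, while leaving out 2 other lungs (diamonds) moves most of them away from it.

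These values depended on single lungs. Leaving out IL-10 B-WT replicate 5 took the median of the 10 from 0.17 to 0.04, and Hsp90b1 and Creld2 then lay slightly below 0 (-0.05 for both). Leaving out IL-10 B-WT replicate 1 took the median to 0.33, and 3 genes had an unadjusted p of at most 0.05: Dnajb11 (0.48), Sdf2l1 (0.85) and Pdia6 (0.62). With that lung out, 25.2% of all genes passed the same mark. With IL-10 B-KO replicate 2 left out as well, 5 of the 10 had such a p, these 3 with Hspa5 (0.67) and Herpud1 (-0.53), against 30.9% of all genes. Even there 0 of 10 passed the adjusted p, and the smallest were 0.0589 for Sdf2l1 (log2 fold change 1.03) and 0.0604 for Dnajb11 (0.57). Of the lungs left out, IL-10 B-WT replicate 1 was the highest of its genotype for 6 of the 10 genes. IL-10 B-KO replicate 2 was the lowest of its genotype for 5. When each lung was rescaled without mitochondrial sequence and globins, the median was 0.02, and 7 of the 10 genes lay above 0. That scaling also took the median of all genes from 0.10 to -0.035, and leaving out IL-10 B-WT replicate 5 took it to -0.019.

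On the TPM scale, the 10 genes but Herpud1 varied together from lung to lung, less so after rescaling, when Dnajb9 also stood apart. IL-10 B-WT replicate 5 was the lowest IL-10 B-WT lung for all 10 genes and the lowest of all 12 lungs for 9, the exception being Herpud1, lowest in IL-10 B-KO replicate 6. The mean deviation of the 10 genes from their 12-lung means was -0.94 on the log2 scale in IL-10 B-WT replicate 5, 0.51 in replicate 1 and 0.44 in replicate 2, with replicates 3, 4 and 6 between -0.34 and -0.07. In IL-10 B-KO lungs it ran from -0.18 (replicate 2) to 0.48 (replicate 5). The spread between lungs was thus wider in IL-10 B-WT (SD 0.54) than in IL-10 B-KO (SD 0.27), a difference that was not tested. As a sum, the 10 genes took 0.0531% of all TPM in IL-10 B-WT replicate 5 and 0.161% in replicate 1, and between 0.0953% and 0.159% in IL-10 B-KO lungs. On a total without mitochondrial sequence and globins, the sum was 1178 TPM in IL-10 B-WT replicate 5, and the ranges were 1155 to 1784 TPM for IL-10 B-WT and 1255 to 1737 TPM for IL-10 B-KO. The highest sums of each genotype were then still those of replicate 1 (IL-10 B-WT) and replicate 5 (IL-10 B-KO). Those lungs also had the highest neutrophil marker sum of their genotype (2479 and 7527 TPM). Other lungs went both ways. IL-10 B-KO replicate 6 had the second highest neutrophil sum of its genotype (4972 TPM) but its lowest rescaled sum of the 10 genes (1255 TPM). IL-10 B-KO replicate 3, with a neutrophil sum of 4420 TPM, had a rescaled sum of 1576 TPM. The part of these cells in the members' levels was not tested.

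**Figure D3:**
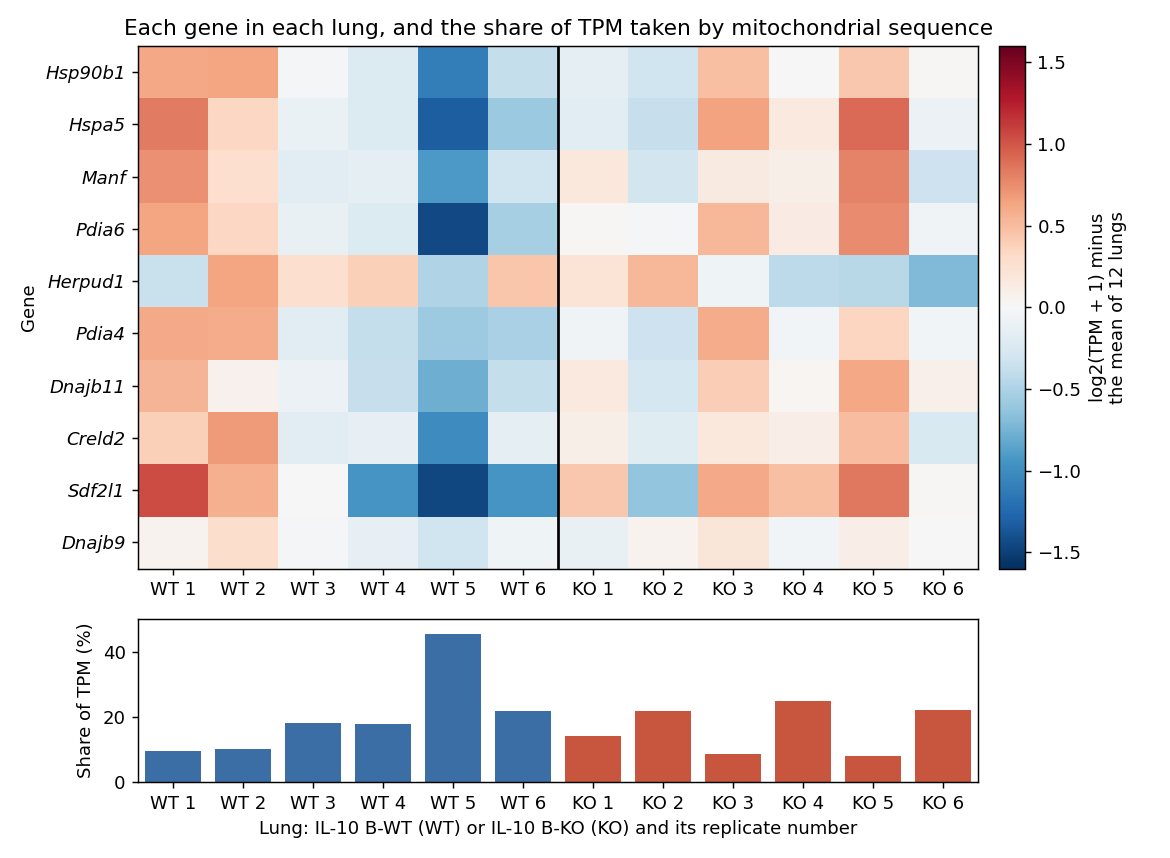
Top, log2(TPM + 1) of each gene in each lung minus its 12-lung mean (colour scale in log2 units). Bottom, the share of TPM (percent) taken by mitochondrially encoded genes and their nuclear copies, 45.3% in IL-10 B-WT replicate 5, the lung in which 9 of the 10 genes are lowest.

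Across the 12 lungs, pairs of the 9 genes other than Herpud1 had a Pearson correlation of log2(TPM + 1) between 0.63 and 0.97 (median 0.89, 36 pairs). The 9 pairs with Herpud1 lay between -0.28 and 0.22 (median -0.07). These points share each lung's total, and the correlations are given as a description. After rescaling without mitochondrial sequence and globins, the medians were 0.67 without Herpud1 and -0.55 with it, and the ranges overlapped: -0.52 to 0.94 without Herpud1 and -0.91 to 0.32 with it. All negative values without Herpud1 were pairs of Dnajb9, from -0.52 with Pdia6 to -0.20 with Creld2. With Pdia4, Dnajb9 had 0.21. The lowest pair without either gene was Dnajb11 with Creld2 (0.35). Within lungs, the Herpud1 TPM divided by the Hspa5 TPM was, for replicates 1 to 6 in turn, 0.268, 0.759, 0.795, 0.931, 1.10 and 1.27 in IL-10 B-WT lungs. In IL-10 B-KO lungs it was 0.811, 1.16, 0.374, 0.409, 0.239 and 0.400. This ratio does not depend on a lung's total. It was at or below 0.409 in 4 of 6 IL-10 B-KO lungs and in 1 of 6 IL-10 B-WT lungs, replicate 1, and since it was formed after the values were seen it was not tested.

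**Figure D4:**
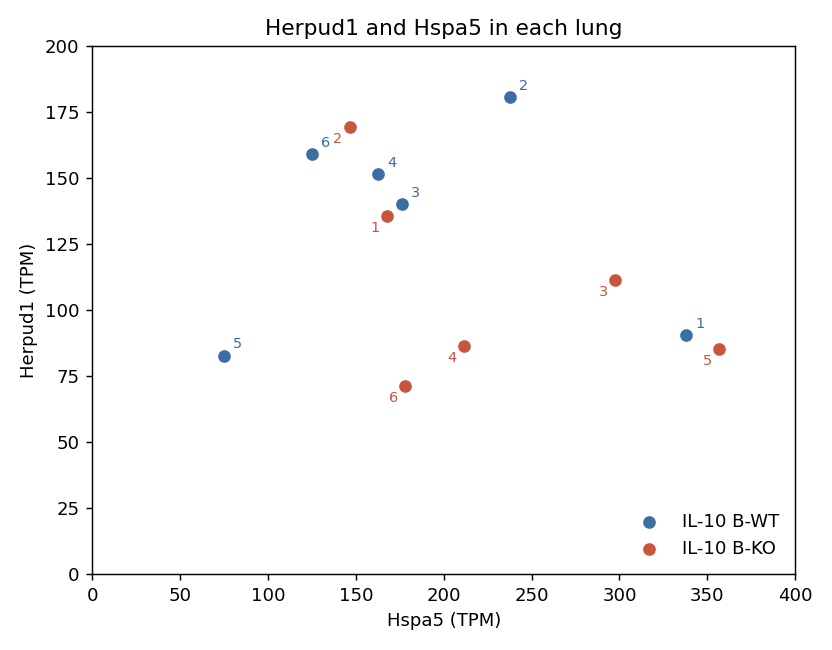
Herpud1 TPM (vertical) against Hspa5 TPM (horizontal) in each lung, coloured by genotype and numbered by replicate. IL-10 B-WT replicate 1 (338 and 90.6 TPM) lies beside IL-10 B-KO replicate 5 (357 and 85.4 TPM), and IL-10 B-WT replicate 5 is low for both genes.

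Per length, Hsp90b1 (mean over 12 lungs 223 TPM) and Hspa5 (206 TPM) were the most abundant, followed by Manf (168), Pdia6 (140), Herpud1 (122), Pdia4 (74.8), Dnajb11 (67.1), Creld2 (48.7), Sdf2l1 (45.3) and Dnajb9 (24.9). Some neighbours in this order were not separated within lungs. Creld2 exceeded Sdf2l1 in 6 of 12 lungs and Pdia6 exceeded Herpud1 in 5. Sdf2l1 exceeded Dnajb9 in 8, and Hsp90b1 exceeded Hspa5, and Hspa5 exceeded Manf, in 9. The other steps held in 10 or 11 lungs.

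The genes whose pattern over the 12 lungs was most like the mean of the 10, after each genotype's mean was subtracted, were Slc35c1 (Pearson's r = 0.979, a GDP-fucose transporter of the Golgi), Kpnb1 (0.978, importin beta of nuclear import), Sf3b3 (0.975, a splicing factor subunit), Bcl6 (0.975, a transcriptional repressor) and Nab2 (0.974, a corepressor of EGR factors). Without IL-10 B-WT replicates 1 and 5, r lay between 0.943 and 0.957 for these 5 genes. Such likeness was common, since 905 of 15138 other genes (5.98%) had an r above 0.9, and all share each lung's total.

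In the rest of the pathway, 0 of 122 listed genes were DEGs, where the share of all genes was 0.495%. The counts of each list below stand beside 12.5% of all genes at an unadjusted p of at most 0.05, 63.2% above 0 and a median of 0.10. Such an unadjusted p was found for 1 gene each of ATF4 and CHOP targets, ER-associated degradation, translocation and ER to Golgi transport. It was found for 0 genes of the remaining lists. Of 24 other ER chaperones and folding enzymes, 0 were DEGs, also 0 passed an unadjusted p of 0.05, 19 lay above 0 and the median was 0.22. The smallest unadjusted p in this list was that of P4hb, the founding protein disulfide isomerase, at 192 to 541 TPM (median 285) in IL-10 B-WT and 326 to 610 TPM (median 391) in IL-10 B-KO lungs (log2 fold change 0.51, limma adjusted p = 0.400). Ppib, a proline isomerase (cyclophilin B), followed, with 0.38 (adjusted p = 0.446). Of 13 sensors, proteases and transcription factors, 0 were DEGs, 11 lay above 0 and the median was 0.14. Among the transcripts of the 3 sensors, Ern1 had a log2 fold change of 0.14 (adjusted p = 0.794), Atf6 0.14 (adjusted p = 0.819) and Eif2ak3 0.19 (adjusted p = 0.765). Xbp1, whose splicing by IRE1 is not seen in a gene-level value, was at 103 to 220 TPM (median 144) and 111 to 188 TPM (median 143), with a log2 fold change of -0.04 (limma adjusted p = 0.940). Its highest level, 220 TPM, was in IL-10 B-WT replicate 2. Atf4, which is induced mainly at translation, had 0.01 (adjusted p = 0.990), with a sign that turned under several scalings. Ddit3 (CHOP), the factor of the late, pro-apoptotic arm, had 0.34 (adjusted p = 0.564), and a second row of the same name (0 to 155 TPM in IL-10 B-WT and 0 to 256 TPM in IL-10 B-KO lungs) was not used, so that the level of Ddit3 is uncertain. Cebpb had 0.95 (adjusted p = 0.441), with 24.4 to 175 TPM (median 66.2) in IL-10 B-WT and 54.5 to 294 TPM (median 136) in IL-10 B-KO lungs. It is also an inflammatory factor of myeloid cells, and the neutrophil markers had a median log2 fold change of 1.87 (7 of 7 above 0, 0 DEGs, smallest adjusted p = 0.187, sums of 276 to 2479 TPM and 1041 to 7527 TPM). Their part in the Cebpb level was not tested. Eif2s1, the translation factor that PERK phosphorylates, had 0.49 (adjusted p = 0.455).

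Of 17 target genes of ATF4 and CHOP, 0 were DEGs, 13 lay above 0, and the median was 0.29. Trib3, a pseudokinase induced by CHOP, had the smallest p: it was at 1.65 to 6.12 TPM (median 4.38) in IL-10 B-WT and at 5.73 to 8.45 TPM (median 6.93) in IL-10 B-KO lungs. Of the 6 IL-10 B-KO lungs, 5 lay above the highest IL-10 B-WT lung. The log2 fold change of Trib3 was 0.69 (SE 0.23, exact permutation p = 0.00433), which failed the correction over all genes (limma adjusted p = 0.282). Sesn2, a stress-induced inhibitor of mTORC1, had 0.57 (adjusted p = 0.426). Translocation into the ER (18 genes, 17 above 0, median 0.26) and transport from ER to Golgi (18 genes, 17 above 0, median 0.30) held 0 DEGs. The smallest p in these lists belonged to Sec61g, a subunit of the translocation channel (15.4 and 21.2 TPM at the medians, log2 fold change 0.54, adjusted p = 0.325), and to Mcfd2, a cargo receptor subunit (62.9 and 98.7 TPM, 0.59, adjusted p = 0.350). Sec63 and Sar1b followed with 0.38 and 0.27 (adjusted p = 0.465 and 0.460). Cytosolic and mitochondrial heat shock proteins, which answer to another stress response, had a median of 0.13 over 14 genes, with 0 DEGs. Bag3 (-0.27, adjusted p = 0.457) and Hspa8 (0.51, adjusted p = 0.495) had the smallest p of that list. The counts above 0 of the 7 lists also depended on the setting. With quantile normalization they were 11 of 18 for ER-associated degradation (16 in the main fit) and 6 of 14 for heat shock proteins (11). ER to Golgi transport then had 14 of 18 and translocation 16 of 18. Other chaperones had 19 of 24, ATF4 and CHOP targets 13 of 17, and sensors and factors 8 of 13. Without IL-10 B-WT replicate 5, sensors and factors had 6 of 13 (median -0.01).

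**Figure D5:**
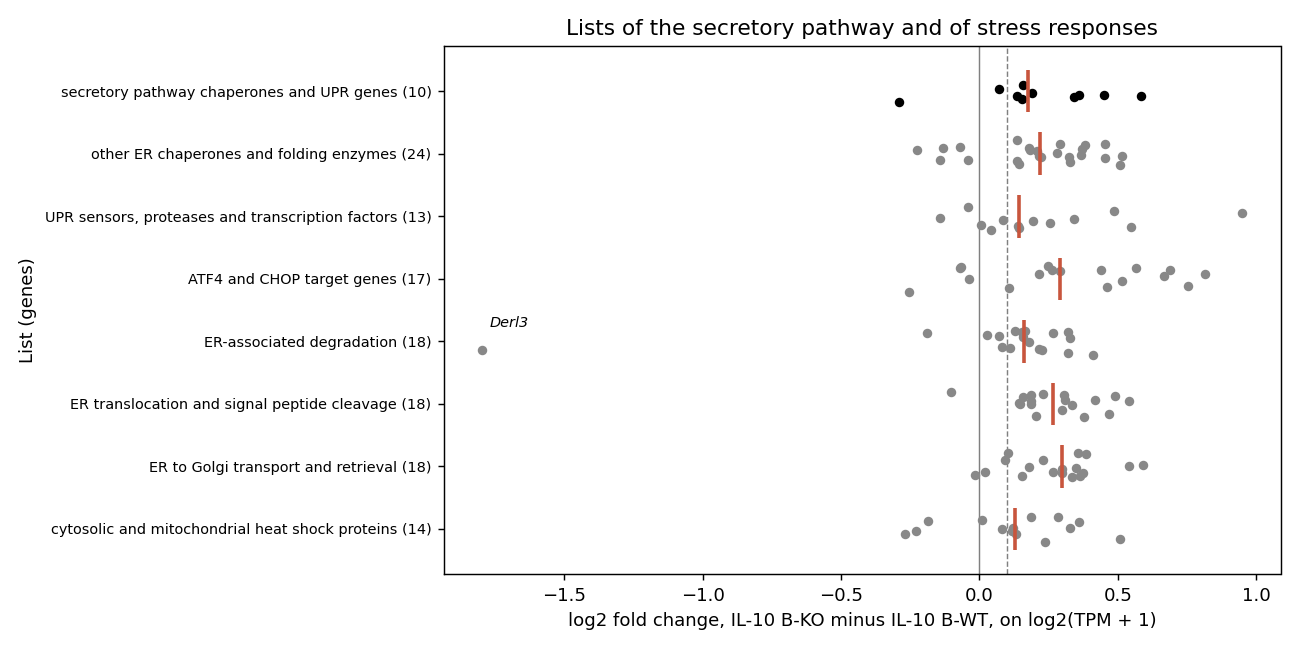
Log2 fold change of every gene (points) in the 10 genes and in 7 lists of the pathway (rows, with the number of genes), on log2(TPM + 1), with red bars at the medians and a dashed line at the median of all genes, 0.10. The medians lie between 0.13 and 0.30, and Derl3 stands alone at -1.80.

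One gene of these lists stood apart from the rest. Of 18 genes of ER-associated degradation 16 lay above 0 and the median was 0.16, but Derl3, a derlin of the retrotranslocation channel that is abundant in secretory cells such as plasma cells, was lower in every IL-10 B-KO lung. Replicates 1 to 6 of IL-10 B-WT had 6.27, 48.0, 8.23, 6.03, 5.68 and 7.11 TPM of Derl3, and those of IL-10 B-KO 2.92, 2.37, 3.16, 1.76, 1.36 and 0.99 TPM. There was no overlap between groups, as for 1.02% of all genes. The log2 fold change was -1.80 (SE 0.43, 95% interval -2.73 to -0.86, exact permutation p = 0.00216, the smallest that 6 against 6 lungs can give), and over all genes the limma adjusted p was 0.103. Without IL-10 B-WT replicate 2, the lung at 48.0 TPM, the value was -1.35 with an adjusted p of 0.0153, and without replicate 1 the adjusted p was 0.0403. With any of the other 10 lungs left out it did not pass, with an adjusted p of up to 0.242. Most plasma cell markers were also lower in IL-10 B-KO lungs. Of 13, 11 were tested and 10 lay below 0 (7 of them DEGs), with a median of -4.77. Sdc1 lay above 0 (0.83, limma adjusted p = 0.351). The marker sum was 1442 to 58944 TPM in IL-10 B-WT and 125 to 465 TPM in IL-10 B-KO lungs. In IL-10 B-KO replicates 1 to 6 it was 190, 465, 186, 125, 161 and 400 TPM, an order unlike that of Derl3. Of the defining markers, Tnfrsf17 was listed at 0 in 4 IL-10 B-KO lungs and Ighg2c in 1, and of the B cell markers Cd79a in 3 and Pax5 in 1, with no IL-10 B-WT lung at 0 for these genes. Iglc1 was at 0 in 7 lungs of both genotypes, 3 of them IL-10 B-KO, with medians of 0 and 0.15 TPM. B cell markers lay below 0 for 8 of 8, with a median of -1.96 and 1 DEG, Cd79a, the gene from which Cre is expressed. Their sums were 74.1 to 894 TPM in IL-10 B-WT and 8.10 to 87.8 TPM in IL-10 B-KO lungs. The part of these cells in the Derl3 level was not tested, and neither was that of the Cre construct in the Cd79a level. Vcp, the ATPase that extracts degradation substrates, had 0.41 (adjusted p = 0.460).

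The lung with the highest level differed among the 10 genes. IL-10 B-WT replicate 2, with a plasma cell sum of 58944 TPM, was the highest of 12 lungs for 4 of the 10 (Hsp90b1, Dnajb9, Herpud1 and Creld2). IL-10 B-KO replicate 5, with a sum of 161 TPM, was the highest for 4 others (Hspa5, Dnajb11, Manf and Pdia6), and IL-10 B-WT replicate 1 for Sdf2l1 and Pdia4. Over the 122 genes of the 7 lists, the highest lung was IL-10 B-KO replicate 5 for 36, IL-10 B-KO replicate 3 for 34, IL-10 B-WT replicate 1 for 20 and replicate 2 for 15, and the lowest was IL-10 B-WT replicate 5 for 99.

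Genes can also be taken by promoter sequence alone. Of 49 gene symbols with ERSE or ERSE-II in the promoter, 46 matched one row of the table and 29 passed the filter. Of these 29, 0 were DEGs, 17 lay above 0 and the median log2 fold change was 0.12. Without the 6 genes described here, 23 remained, of which 12 lay above 0 (median 0.03). An unadjusted p of at most 0.05 was found for 3 of the 23, near the 12.5% of all genes, namely Derl3, Acacb (-0.50, adjusted p = 0.306) and Adcy3 (-0.49, adjusted p = 0.353), all below 0. Also among the 23 were Calr (0.32) and Canx (0.18), the lectin chaperones of glycoproteins, Dnajc3 (0.14), an HSP40 co-chaperone, Ero1b (-0.14), an oxidase that recharges disulfide isomerases, and Syvn1 (-0.19), the HRD1 ligase in whose complex Herpud1 acts.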

How the data were processed

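The study sequenced lungs of 12 LPS-treated mice, 6 IL-10 B-KO mice and 6 controls (IL-10 B-WT). Its single table holds, as the authors deposited it, TPM in 1 column per lung. The submitters' processing notes name fastp, HISAT, RSEM and GRCm38.p5, and the versions and the annotation release are not given in the sources used here. No per-sample column was left unused (0 columns), and no 2 lungs held identical values (0 pairs). TPM keep no depth, and no count model was fitted. Separate mice are taken from the study's description of 12 mice.

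Log2(TPM + 1) was modelled on genotype alone, using limma 3.58.1 with a mean-variance trend (R 4.3.3), for the 15148 genes of at least 1 TPM in at least 6 lungs; adjustment was by Benjamini-Hochberg over all of them. This scale understates changes of genes with low TPM. For single genes, an exact permutation test (two-sided, 924 arrangements) was added with a smallest p of 0.00216. The fit was tested on simulated data first. The study's fold threshold was read as an absolute log2 fold change of 1.

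The 10 genes, the 7 pathway lists, the 11 marker lists and the omission of 2 lungs together (replicate 1 of IL-10 B-WT, replicate 2 of IL-10 B-KO) were chosen with earlier results of these data known, so that no list was tested. Named in each pathway list were genes past the adjusted p and the 2 smallest unadjusted p, 6 sensors and factors in any case, and the 5 genes most correlated with the mean of the 10. Other named genes (Cd79a, Acacb, Adcy3, Calr, Canx, Dnajc3, Ero1b, Syvn1, Atf3, Psat1, Slc7a11, Mthfd2 and those of the closing part) were chosen after their values were seen. List symbols Ero1l, Ero1lb and Hm13 were matched as Ero1a, Ero1b and H13.

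Of 23 alternatives, 21 were set out at the start: another pseudocount (0.1), testing without a filter, a filter at a mean of 5 TPM, TPM rescaled without immunoglobulin genes, normalization by quantiles or by medians, quality weights for each array, a replicate block, each lung left out in turn, and the omission of that pair. Rescaling without mitochondrial sequence (with nuclear copies), and also without globins, made 2 more, chosen after seeing the data. Gene positions are from GENCODE M21 (GRCm38), by gene ID, and promoters from RefSeq (GRCm38.p6). Other steps used NumPy 2.4.6, SciPy 1.17.1, pandas 2.3.3 and matplotlib 3.10.9 under Python 3.11.15.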

Additional observations from a re-analysis of the deposited data

Results flagged for a closer look

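Of 60 groups of 6 lungs examined (the 10 genes and the 20 other genes named by rule, in each genotype), 4 held a lung far from its 5 neighbours by Dixon's criterion (a gap to the nearest lung above the 95% critical share of the group's range), where chance flags about 1 in 20 groups, and none of the 4 was one of the 10 genes. Derl3 was at 47.96 TPM in IL-10 B-WT replicate 2, against 5.68 to 8.23 TPM in the other 5 lungs. This is the lung in which immunoglobulin genes took 15.4% of all TPM and plasma cell markers summed to 58944 TPM. The other 3 were low values of IL-10 B-WT replicate 5, the lung with a mitochondrial share of 45.3%: Sec63 at 13.95 TPM (others 30.85 to 38.96), Sar1b at 27.26 TPM (others 39.39 to 46.42) and Atf4 at 111.75 TPM (others 182.22 to 192.25). The part of cell composition and of the mitochondrial share in these values was not tested.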

How the results depend on the processing

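Under all 23 alternatives 0 of the 10 genes were DEGs and 0 passed the adjusted p, so that the call did not depend on these choices. Their median log2 fold change ran from -0.01 (quantile normalization, with 4 of 10 above 0) to 0.41 (without replicate 1 of IL-10 B-WT with replicate 2 of IL-10 B-KO), and from 0.04 to 0.33 with single lungs left out. Signs near 0 turned. With quantile normalization, Hsp90b1 was at -0.057, Dnajb9 at -0.049, Creld2 at -0.021, Manf at -0.0081, Pdia4 at -0.0075 and Atf4 at -0.20. With median centring, Dnajb9 was at -0.038 and Atf4 at -0.10; rescaled without immunoglobulin genes, Atf4 was at -0.048. With array quality weights, Ern1 was at -0.057, Atf6 at -0.013 and Atf4 at -0.19. Rescaled without mitochondrial sequence, Dnajb9 was at -0.0094 and Atf4 at -0.074; also without globins, Dnajb9 was at -0.080, Creld2 at -0.013 and Atf4 at -0.15. With single lungs or that pair left out, the ranges were -0.047 to 0.38 (Hsp90b1), -0.051 to 0.29 (Creld2), -0.0085 to 0.22 (Ern1), -0.14 to 0.075 (Xbp1), -0.037 to 0.30 (Atf6) and -0.12 to 0.075 (Atf4). Derl3 passed the adjusted p with array quality weights (-1.92, adjusted p = 0.0208) and without the pair of lungs (-1.93, 0.0210), while with single lungs left out its adjusted p ran from 0.0153 to 0.242. Cebpb also passed without that pair (1.47, 0.0361), which held its highest IL-10 B-WT and its lowest IL-10 B-KO lung. Over all genes, 75 were DEGs, against 6 with no filter, 27 without immunoglobulin genes, 39 with quantile normalization, 36 with median centring, 318 with array quality weights, 1492 without the pair of lungs, and 19 to 604 with single lungs left out (604 without IL-10 B-WT replicate 1, 19 without IL-10 B-KO replicate 1 or 5). The cause was not tested. Replicate numbers did not pair the lungs: deviations of same-numbered lungs correlated between -0.29 and 0.05, 0 of 6 lungs correlated best with its own number, and with the replicate block 45 genes and 0 of the 10 were DEGs. TPM keep no depth, so that the precision of low values is unknown; the 10 genes were all at 13.8 TPM or more.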

Other observations

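Alveolar type 2 cells, which secrete surfactant proteins, had markers above 0 for 8 of 8 genes (median log2 fold change 0.85, 0 DEGs, 5 with an unadjusted p of at most 0.05 against 12.5% of all genes). The largest of these was Sftpd, surfactant protein D, at 53.1 to 1372 TPM (median 401) in IL-10 B-WT and 644 to 1580 TPM (median 1176) in IL-10 B-KO lungs (1.54, limma adjusted p = 0.328). Club cell markers lay below 0 for 5 of 5 (median -0.89, 0 DEGs), among them Scgb1a1, the main club cell secretory protein (-1.12, adjusted p = 0.434). Macrophage markers lay above 0 for 7 of 7 (median 1.28) and cycling cell markers for 6 of 6 (0.96), with 0 DEGs in either list. Endothelial markers lay below 0 for 6 of 6 (-0.37), alveolar type 1 markers for 4 of 5 (-0.14), and T cell (3 above, 3 below, -0.08) and fibroblast markers (4 above, 2 below, 0.30) went both ways, with 0 DEGs in each. An unadjusted p of at most 0.05 was found for 4 of 7 macrophage, 2 of 6 cycling cell and 1 of 6 endothelial markers. In the lists given above it was found for 7 of 7 neutrophil, 7 of 8 B cell and 10 of 11 plasma cell markers. Club cell, alveolar type 1, T cell and fibroblast markers held 0. IL-10 B-WT replicate 5 had the lowest alveolar type 2 (3354 TPM), macrophage (659 TPM) and cycling cell (12.2 TPM) sums of its genotype. Its endothelial sum was the highest (2598 TPM), and no marker values without that lung are given.

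Within the targets of ATF4 and CHOP, 4 of 17 genes were DEGs without replicate 1 of IL-10 B-WT with replicate 2 of IL-10 B-KO: Atf3, an early stress factor, Psat1 of serine synthesis, Slc7a11, the cystine transporter, and Mthfd2 of mitochondrial folate metabolism. Under that setting 9.85% of all genes were DEGs, and the median log2 fold change of the list was 0.57, beside 0.17 over all genes. For all 4 genes the omitted IL-10 B-WT lung was the highest and the omitted IL-10 B-KO lung the lowest of its genotype. Their omission thus widened the differences, and the pair was chosen with earlier results known. Slc7a11 was also low, with a median of 0.665 TPM in IL-10 B-WT lungs. With all 12 lungs, Mthfd2 was at 2.87 to 17.6 TPM (median 7.59) in IL-10 B-WT and 5.88 to 20.2 TPM (median 14.1) in IL-10 B-KO lungs, with overlapping groups. The list then held 0 DEGs and had a median of 0.29, beside 0.10.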
